A study of Mus musculus with 12 samples.

Results

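Prss56, Spon2, Agt, Scara3, Slc20a2 and Crym are 6 genes of the mouse retina that were picked because their RNA was lower in 2 groups of needled mice than in immunized mice that were not needled. They are 6 of the 54532 genes in the count table, and 6 of the 18299 genes whose counts were high enough to be tested. They were selected on their measured values, namely lower counts in GB20 and in GV16 than in MOG. The low needled values are therefore given as a description, and tests are given for the other contrasts. Those contrasts still use libraries that entered the choice (MOG in MOG vs. SHAM, GB20 and GV16 in the rest), so a high MOG value or a low needled value helped to bring a gene onto the list.

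The study sequenced retinal RNA of wild-type C57BL/6 mice aged 13 weeks, as 12 libraries with 3 in each of 4 groups. SHAM mice were the controls, and what they received is not given in the sources used here. The methods name female mice. MOG mice were immunized 5 weeks earlier with a peptide of myelin oligodendrocyte glycoprotein in complete Freund's adjuvant, followed by pertussis toxin, which induces experimental autoimmune encephalomyelitis (EAE) with optic neuritis. GB20 and GV16 mice had the same immunization and were in addition needled every 3 days during the last 2 weeks, at the acupoint GB20 or at the nearby control acupoint GV16. Needled mice were anesthetized with xylazine and ketamine before each needling, and whether SHAM and MOG mice were anesthetized is not given, so that needling and anesthesia cannot be told apart in any contrast with SHAM or MOG. The methods describe 2 or 3 mice per group in an experiment done 3 times, and do not say whether a library is 1 mouse or a pool. The p-values below weigh group differences against the spread between libraries of a group.

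In optic neuritis the optic nerve is inflamed and demyelinated, and the retinal ganglion cells whose axons form that nerve are lost, while the Müller cells and astrocytes of the retina become reactive. Prss56 encodes a secreted trypsin-like serine protease that Müller cells make and that is needed for normal growth of the eye, since its loss gives a short, far-sighted eye. The other genes encode a secreted matrix protein that binds integrins (Spon2, also called mindin), the precursor of the angiotensin peptides, which astrocytes make in the brain (Agt), a scavenger receptor linked to protection from oxidative damage (Scara3), a sodium-coupled phosphate transporter whose loss causes brain calcification (Slc20a2, also called PiT-2), and a cytosolic protein that binds thyroid hormone (Crym, also called mu-crystallin).

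All 6 are protein-coding genes on different stretches of the genome. In the GENCODE vM21 annotation of GRCm38, Prss56 (ENSMUSG00000036480) lies on chromosome 1 from 87183313 to 87188405 on the plus strand. Spon2 (ENSMUSG00000037379) lies on chromosome 5 from 33198184 to 33218455 and Crym (ENSMUSG00000030905) on chromosome 7 from 120186380 to 120202111, both on the minus strand. Chromosome 8 holds Slc20a2 (ENSMUSG00000037656), from 22476788 to 22569612 on the plus strand, and Agt (ENSMUSG00000031980), from 124556534 to 124569706 on the minus strand. Scara3 (ENSMUSG00000034463) lies on chromosome 14 from 65919394 to 65953935 on the minus strand. Exons of 5 of the genes overlap no other gene, and 95 exonic bases of Slc20a2 (1.53%) also belong to Smim19 on the other strand. Each value counts reads over all exons of a gene together.

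Promoter sequence was at hand for 2 of the 6 genes, Prss56 and Agt (RefSeq, GRCm38.p6), and is shown for these alone. The 250 bases before each RefSeq start site follow, read 5′ to 3′ on the strand of the gene. They come from chr1:87183064-87183313 (plus) and chr8:124569707-124569956 (minus). The Prss56 window ends on 87183313, the base where the gene begins in the GENCODE annotation above. Capitals mark matches to 7 motifs searched on both strands.
Prss56: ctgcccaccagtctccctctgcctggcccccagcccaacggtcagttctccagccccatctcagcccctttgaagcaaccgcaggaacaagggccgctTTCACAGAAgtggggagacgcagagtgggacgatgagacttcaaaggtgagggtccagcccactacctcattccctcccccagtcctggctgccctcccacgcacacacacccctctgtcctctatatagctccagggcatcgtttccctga
Agt: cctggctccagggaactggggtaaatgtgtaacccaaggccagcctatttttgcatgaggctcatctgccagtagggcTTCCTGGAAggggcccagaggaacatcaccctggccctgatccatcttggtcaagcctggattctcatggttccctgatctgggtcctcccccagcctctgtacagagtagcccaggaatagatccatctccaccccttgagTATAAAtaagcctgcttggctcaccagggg

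Both windows held the letters TTCNNNGAA, the palindrome of a STAT site, starting 152 bases before the start site in Prss56 (TTCACAGAA) and 172 bases before it in Agt (TTCCTGGAA). Of 32851 promoters of the same length, 7.02% held this motif. The Agt window also held a TATA box, TATAAA, which starts 30 bases before the start site and which 12.4% of all promoters held. The Prss56 window did not hold these exact letters, and variants of them were not searched. Neither window held CCAAT (33.8% of all promoters), the GC box GGGCGG (32.7%), the E-box CACGTG (6.02%), the AP-1 site TGANTCA (6.75%) or the nuclear receptor letters AGGTCA (14%), and these motifs share no letters where they were found. GC content was 61.2% in Prss56 and 55.6% in Agt, against a median of 52.4% over all promoters. A match describes the letters and is not a measured binding site.

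Per gene length, Crym was the highest of the 6 in all 4 groups and Spon2 the lowest, on the scale of the deposited FPKM values, in which counts are divided by gene length and library size (mean ± SD, n = 3). In SHAM, Crym stood at 12.6 ± 0.715, Scara3 at 7.48 ± 0.596, Slc20a2 at 6.35 ± 0.285, Agt at 3.90 ± 0.185, Prss56 at 3.74 ± 0.686 and Spon2 at 1.0 ± 0.397 FPKM. Prss56 and Agt were neighbours whose SHAM libraries overlapped (2.95 to 4.15 and 3.70 to 4.06 FPKM). In MOG, Prss56 was at 9.02 ± 1.08 FPKM, between Scara3 at 9.64 ± 0.585 and Slc20a2 at 8.82 ± 0.494, with overlapping libraries among these 3 genes, while Agt stood at 5.46 ± 0.251, Crym at 19.0 ± 0.281 and Spon2 at 1.92 ± 0.185 FPKM. In the needled groups, Prss56 was again beside Agt, at 3.04 ± 0.418 against 2.98 ± 0.739 FPKM in GB20 and 2.35 ± 0.560 against 2.55 ± 0.389 FPKM in GV16. Over the 12 libraries, Crym had more FPKM than 79.9% of the genes tested, Prss56 more than 50.2% and Spon2 more than 22.8%.

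Values from here on are counts scaled to library size (CPM), which compare groups within 1 gene. Prss56, the protease, was at 9.14, 9.06 and 6.49 CPM in the 3 SHAM libraries and at 19.0, 22.6 and 17.9 CPM in the MOG libraries. The GB20 libraries held 7.42, 6.99 and 5.60 CPM and the GV16 libraries 3.79, 5.47 and 6.19 CPM. Every MOG library was above all 9 others, and the GV16 libraries lay below the SHAM libraries without overlap, while GB20 overlapped both SHAM and GV16. The group totals behind these values were 422 reads in SHAM, 1005 in MOG, 351 in GB20 and 246 in GV16.

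Spon2, the integrin-binding matrix protein, was the gene with the fewest reads of the 6 (152, 291, 81 and 87 per group in the same order). Its SHAM libraries were spread widely, at 4.06, 3.18 and 1.72 CPM. MOG libraries held 6.27, 5.22 and 5.64 CPM, GB20 libraries 1.55, 2.07 and 1.04 CPM, and GV16 libraries 1.86, 1.8 and 1.8 CPM. MOG again stood above all other libraries, and the third SHAM library lay within the range of the needled libraries.

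Agt, the angiotensin precursor, had 7.75, 7.06 and 7.55 CPM in SHAM and 9.85, 10.9 and 10.5 CPM in MOG. GB20 libraries were at 5.46, 7.18 and 4.39 CPM and GV16 libraries at 4.41, 4.44 and 5.70 CPM. As for Prss56, GV16 lay below SHAM without overlap. Of the GB20 libraries of Agt, 1 reached the SHAM range.

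Scara3, the scavenger receptor, had 28.2, 28.6 and 24.7 CPM in SHAM and 37.1, 33.2 and 34.5 CPM in MOG, against 23.2, 26.8 and 26.5 CPM in GB20 and 25.8, 26.1 and 25.5 CPM in GV16. Slc20a2, the phosphate transporter, had 41.6, 38.0 and 40.0 CPM in SHAM, 56.0, 57.9 and 51.8 CPM in MOG, 38.8, 40.0 and 37.5 CPM in GB20, and 40.5, 38.2 and 42.9 CPM in GV16. Crym, the thyroid hormone binding protein, had 43.4, 45.1 and 40.3 CPM in SHAM, 65.4, 65.8 and 64.0 CPM in MOG, 47.6, 49.8 and 40.8 CPM in GB20, and 38.6, 41.5 and 37.7 CPM in GV16. In these 3 genes SHAM, GB20 and GV16 overlapped one another, and only the MOG libraries stood apart.

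**Figure D1:**
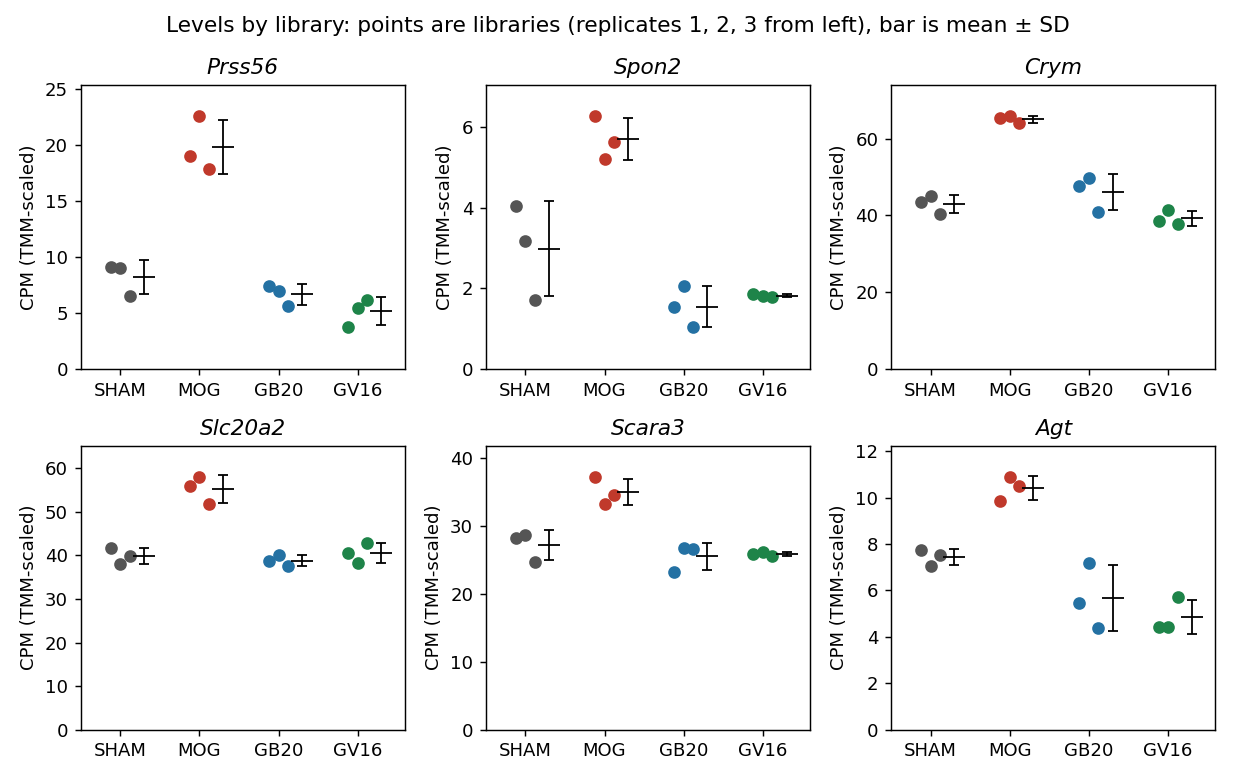
Level of each of the 6 genes in CPM (y axis from 0) in the 3 libraries of SHAM, MOG, GB20 and GV16 (x axis); points are libraries and the bar beside them is the mean with its SD. In each panel the 3 MOG points lie above the 9 others, which for Prss56 means 17.9 CPM or more against 9.14 CPM or less.

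In the contrasts that chose the genes, all 6 were DEGs (genes with an adjusted p under 0.05, whatever their fold) in both, which the choice of lower values favoured. GB20 vs. MOG had 26 genes called lower, 0.142% of those tested, and GV16 vs. MOG had 18, or 0.0984%. Relative to MOG, Prss56 had a fold of 0.338 in GB20 and 0.26 in GV16. The fold was 0.272 and 0.319 for Spon2, 0.545 and 0.466 for Agt, 0.708 and 0.603 for Crym, 0.702 and 0.734 for Slc20a2, and 0.728 and 0.739 for Scara3, in GB20 and GV16 respectively. With the adjusted p under 0.05 in both contrasts, 15 genes were lower in both needled groups (0.082% of those tested), so the 6 genes are part of a set of 15.

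The other 9 of these 15 were Hkdc1 (a hexokinase family member), Plat (tissue plasminogen activator), Mmp14 (a membrane-bound matrix metalloproteinase), Cnp (a myelin enzyme), Oas2 (an interferon-induced enzyme), Osmr (the oncostatin M receptor), Aqp4 (the water channel of Müller cells and astrocytes), Fbn2 (fibrillin, a matrix protein) and Spon1 (a spondin, of the same family as Spon2). Scara3 was among the 5 members nearest the threshold, with Osmr, Aqp4, Fbn2 and Spon1, each with 0.0472 as the larger of its adjusted p-values. Just outside were Efhd1 (0.107), Myo10 (0.127) and Il4ra (0.146). Of the 15 genes, 12 were also DEGs higher in MOG than in SHAM, and the exceptions were Spon2, Agt and Spon1. Of all genes tested, 104 (0.568%) were called higher in that contrast. The same MOG libraries entered the choice of the 15, so the count of 12 does not stand apart from the choice. In the opposite direction, 8 genes were higher in both needled groups than in MOG.

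**Figure D2:**
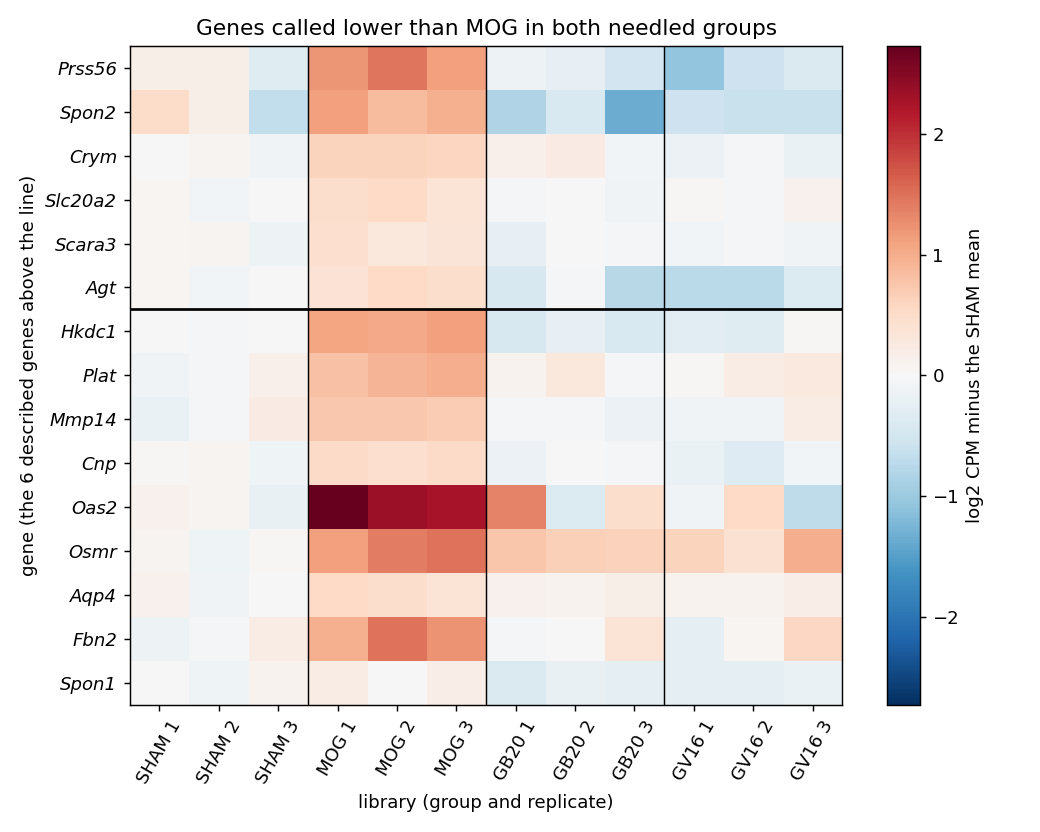
Level of the 15 genes called lower than MOG in both needled groups (rows, with the 6 described genes above the line) in each of the 12 libraries (columns), as log2 CPM minus the mean of SHAM; red is above SHAM and blue below. Prss56 sits at 1.13 to 1.46 in the MOG libraries and at -0.39 to -1.08 in GV16, while Osmr stays above 0 in all needled libraries.

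MOG vs. SHAM compares retinas of immunized mice that were not needled with control retinas. In this contrast, 4 of the 6 were called higher, namely Prss56, Crym, Slc20a2 and Scara3, while 104 of all genes tested (0.568%) were called higher. The median log2 fold change was 0.54 over the 6 genes and -0.0024 over all genes tested. Every MOG library was above every SHAM library in all 6 genes, which was so for 7.87% of the genes tested. MOG libraries had to be high for a gene to be chosen, so these counts do not stand apart from the choice.

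Prss56 was 2.41-fold higher in MOG than in SHAM (log2 fold change 1.27 ± 0.16 SE, 95% interval 0.94 to 1.60, edgeR quasi-likelihood test with Benjamini-Hochberg adjusted p = 8.79e-05), rank 12 by p of all genes tested. Crym was 1.52-fold higher (0.60 ± 0.081, adjusted p = 1.86e-04) and Slc20a2 1.39-fold higher (0.47 ± 0.077, adjusted p = 0.0015). These 3 calls held in the 10 other fits and the 12 fits without 1 library that were run. Scara3 was 1.29-fold higher (0.36 ± 0.088, adjusted p = 0.0367), and its call was lost without 7 of the 12 libraries in turn (SHAM 1 and 3, all 3 of MOG, GB20 3 and GV16 3), with adjusted p between 0.0518 and 0.138, and in 4 of the 10 other fits (DESeq2 and edgeR on 6 libraries, and both FPKM fits; adjusted p 0.0687 to 0.0885).

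Spon2 and Agt were not called. Spon2 had a fold of 1.92 in MOG vs. SHAM (0.94 ± 0.24, 95% interval 0.45 to 1.44, adjusted p = 0.0519 by edgeR), just outside the threshold, and it passed in 6 of the 10 other fits and without SHAM 1, GB20 2 or GB20 3 (adjusted p 0.0279, 0.0423 and 0.0427). Agt had a fold of 1.40 (0.48 ± 0.15, interval 0.16 to 0.80, adjusted p = 0.156), and it passed in none of the fits run.

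Against SHAM, the needled retinas had no DEG among the 6 genes. GB20 vs. SHAM had 63 DEGs in either direction (0.344% of the genes tested) and GV16 vs. SHAM had 120 (0.656%). With the replicate number as a block, these were 182 and 236 DEGs, again with none of the 6 genes, and the lowest adjusted p among the 6 was 0.099 in GB20 (Spon2) and 0.054 in GV16 (Prss56). At an unadjusted p under 0.05 by edgeR, 2 of the 6 genes were lower in GB20 than in SHAM (9.06% of the genes tested in either direction) and 3 were lower in GV16 (10.9%). The median log2 fold change over the 6 was -0.20 in GB20 and -0.37 in GV16, against 8.51e-04 and -0.0041 over all genes. Libraries of GB20 and SHAM overlapped in all 6 genes, where 12.7% of the genes tested did not overlap, and those of GV16 and SHAM overlapped in all but Prss56 and Agt, where 14.5% of the genes tested did not.

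Prss56, Spon2 and Agt lay lowest against SHAM in both needled groups. Prss56 had a log2 fold change of -0.30 (95% interval -0.65 to 0.061, adjusted p = 0.67) in GB20 and -0.67 (-1.05 to -0.30, adjusted p = 0.098, unadjusted p = 0.00108) in GV16. Without the third SHAM library the GV16 value was -0.82, with an adjusted p of 0.0252. Spon2 was at -0.93 (-1.51 to -0.36, adjusted p = 0.181) in GB20 and -0.70 (-1.27 to -0.13, adjusted p = 0.324) in GV16, and its GB20 value without the third SHAM library was -1.22, with an adjusted p of 0.0462. Agt was at -0.39 (-0.73 to -0.057, adjusted p = 0.449) in GB20 and -0.62 (-0.97 to -0.27, adjusted p = 0.104) in GV16.

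Crym, Slc20a2 and Scara3 were nearer to SHAM. Their 95% intervals included a fold of 1 in both needled groups and lay between 0.812 and 1.21 times the SHAM level. Slc20a2 had the narrowest bounds, with a fold of 0.973 (0.87 to 1.09) in GB20 and 1.02 (0.91 to 1.14) in GV16. Scara3 had folds of 0.937 (0.824 to 1.07) and 0.951 (0.836 to 1.08), and Crym of 1.07 (0.955 to 1.21) and 0.914 (0.812 to 1.03).

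GB20 vs. GV16 asks whether the site of needling made a difference. None of the 6 genes was called (each adjusted p = 1 by edgeR), none had libraries that did not overlap (8.34% of the genes tested), and 1 of the 6, Crym, had an unadjusted p under 0.05 (2.93% of the genes tested). Over all genes, 1 was called, Gpnmb (0.00546%). Crym was 1.17-fold higher in GB20 (log2 fold change 0.23 ± 0.082, 95% interval 0.062 to 0.40, unadjusted p = 0.00977). Prss56 had a fold of 1.30 (0.38 ± 0.18, interval -0.0014 to 0.76, unadjusted p = 0.0508), so a level in GB20 up to 1.69 times that in GV16 is within its interval. The folds of the others were 1.17 (0.914 to 1.49) for Agt, 0.852 (0.554 to 1.31) for Spon2, 0.956 (0.855 to 1.07) for Slc20a2 and 0.986 (0.866 to 1.12) for Scara3.

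**Figure D3:**
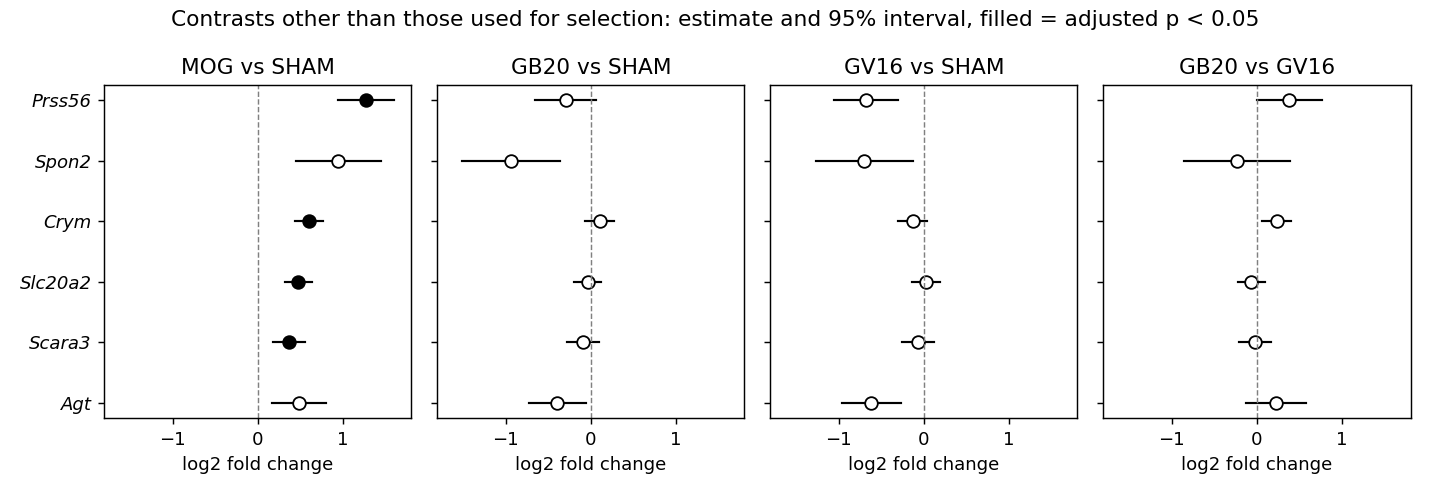
Log2 fold change (x axis) of the 6 genes (y axis) in MOG vs. SHAM, GB20 vs. SHAM, GV16 vs. SHAM and GB20 vs. GV16; points are edgeR estimates, lines 95% intervals, and a filled point has an adjusted p under 0.05. Filled points occur in MOG vs. SHAM alone, for Prss56, Crym, Slc20a2 and Scara3, and in GV16 vs. SHAM the intervals of Prss56, Spon2 and Agt lie below 0.

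The order of the 3 libraries within a group was compared over the 6 genes. In GB20, replicate 2 was the highest library for 5 of the 6 genes (33.9% of all genes tested) and replicate 3 the lowest for 5 (34% of all genes tested). In SHAM, replicate 1 was highest for 4 and replicate 3 lowest for 4, against 29.9% and 33.4% of all genes tested. In MOG, replicate 2 was highest for 4 of the 6 genes (33.4% of all genes tested). The lowest MOG library was replicate 1 for 1, replicate 2 for 2 and replicate 3 for 3 (37.1%, 32.8% and 30.1% of all genes tested). In GV16 no order was shared, with replicates 1, 2 and 3 highest for 1, 2 and 3 genes and lowest for 2, 1 and 3. Over all genes tested, these GV16 libraries were highest for 33.5%, 35.2% and 31.3% and lowest for 34.1%, 32.3% and 33.6%. The 6 genes share each library, so this is a description of 12 libraries.

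Across the 12 libraries, the 10 genes whose log2 CPM was most like that of Prss56 included the 5 other genes described here. Crym was the nearest (Pearson r = 0.932), followed by Cnp (0.931), Hkdc1 (0.919), Agt (0.912), S100a16 (0.899), Adora2a (0.899), Gm45001 (0.882), Spon2 (0.882), Slc20a2 (0.878) and Scara3 (0.869). All 10 were highest in MOG. The 6 genes were chosen for being higher in MOG than in GB20 and GV16, so their likeness over the 12 libraries largely follows from the choice. After subtracting the group means, r with Prss56 was 0.744 for S100a16, 0.588 for Gm45001, 0.541 for Crym, 0.528 for Spon2, 0.487 for Agt, 0.349 for Slc20a2, 0.324 for Hkdc1, 0.3 for Adora2a, 0.176 for Cnp and 0.080 for Scara3. S100a16, a calcium-binding protein that the selection did not hold, had 24.3 CPM in SHAM, 31.9 in MOG, 23.8 in GB20 and 21.8 in GV16. These correlations are given without a p, and the libraries are shared by every gene.

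Over the lists of genes related to each of the 6, 66 genes were tested. In MOG vs. SHAM, 1 of them was called (1.52%), against 245 of all genes in either direction (1.34%), in GB20 vs. MOG 1 against 44 (0.24%), in GV16 vs. MOG 1 against 30 (0.164%), and in the other contrasts 0. These shares rest on single genes. Of 15 genes in the list for eye size, the setting of Prss56, 13 were tested and 0 were DEGs in any of the 6 contrasts. The median log2 fold change of the 13 in MOG vs. SHAM was 0.044, with -0.0024 over all genes. Mfrp, a membrane protein of the pigment epithelium and ciliary body whose loss also gives a short eye, was at 1.18 ± 0.299 CPM in SHAM, 2.02 ± 0.502 in MOG, 2.05 ± 0.596 in GB20 and 2.22 ± 0.130 in GV16 (MOG vs. SHAM log2 fold change 0.77 ± 0.29, adjusted p = 0.246 by edgeR). Tmem98, another gene of the short eye, was at 7.75 ± 0.732 CPM in SHAM and 9.74 ± 1.15 in MOG (0.33 ± 0.14, adjusted p = 0.309). Adipor1, a receptor needed to keep docosahexaenoic acid in the retina, was at 601 ± 20.3 CPM in SHAM and 578 ± 44.4 in MOG (-0.055 ± 0.078, adjusted p = 0.806). Of the 15, 2 genes (C1qtnf5 and Sco2) had 0 reads in all libraries, and exons of both overlap other genes.

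The angiotensin system beside Agt had 10 of 16 genes tested and 0 DEGs in any contrast, with a median log2 fold change of -0.021 in MOG vs. SHAM. Ren1, the renin gene whose enzyme makes angiotensin I from the Agt product, had 0 reads in all 12 libraries. Ace, the converting enzyme, was at 6.92 ± 0.544 CPM in SHAM, 6.41 ± 0.315 in MOG, 6.57 ± 0.653 in GB20 and 6.52 ± 1.09 in GV16 (MOG vs. SHAM -0.11 ± 0.15, adjusted p = 0.796). Agtr1a, the main angiotensin II receptor, reached 30 reads in 1 library at most and was not tested.

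Thyroid hormone genes, the setting of Crym, had 17 of 18 tested and 0 DEGs, with a median of -0.035 in MOG vs. SHAM. Thrb, the receptor that sets cone identity, was at 83.8 ± 4.30 CPM in SHAM, 96.9 ± 7.06 in MOG, 85.0 ± 6.33 in GB20 and 91.6 ± 3.77 in GV16 (MOG vs. SHAM 0.21 ± 0.075, adjusted p = 0.223). Dio2, which activates thyroid hormone, varied widely, at 62.8 ± 21.3, 29.6 ± 14.3, 60.9 ± 6.85 and 51.3 ± 31.2 CPM in the same order (-1.09 ± 0.50, adjusted p = 0.402).

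Phosphate transport and brain calcification genes, the setting of Slc20a2, had 7 of 11 tested and 0 DEGs, with a median of 0.11 in MOG vs. SHAM. Slc20a1, the other transporter of the same family, was at 113 ± 4.89 CPM in SHAM, 106 ± 4.43 in MOG, 105 ± 7.18 in GB20 and 104 ± 3.51 in GV16 (MOG vs. SHAM -0.099 ± 0.070, adjusted p = 0.566). Xpr1, the phosphate exporter, was at 143 ± 19.7 CPM in SHAM and 158 ± 4.11 in MOG (0.14 ± 0.090, adjusted p = 0.533).

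Spondin family and mindin receptor genes, the setting of Spon2, had 10 of 12 tested and 2 DEGs, with a median log2 fold change of 0.30 in MOG vs. SHAM, -0.18 in GB20 vs. MOG and -0.19 in GV16 vs. MOG (all genes -0.0024, 8.37e-04 and 0.0024). In the other related lists the medians lay between -0.1 and 0.0383 in GB20 vs. MOG and between -0.0399 and 0.0425 in GV16 vs. MOG. Thbs1, a matrix glycoprotein that shares a repeat with the spondins, was higher in MOG (5.0 ± 1.46 CPM) than in SHAM (2.66 ± 0.151 CPM; 0.91 ± 0.22, adjusted p = 0.0325), and it stood at 4.48 ± 0.971 CPM in GB20 and 4.31 ± 0.454 in GV16. Spon1 was at 109 ± 7.67 CPM in SHAM, 120 ± 8.42 in MOG, 89.8 ± 6.22 in GB20 and 93.2 ± 2.57 in GV16. It was lower than MOG in GB20 (-0.42, adjusted p = 0.0125) and in GV16 (-0.37, adjusted p = 0.0472), which is why it is among the 15 genes above, and in MOG vs. SHAM it had 0.14 ± 0.075 (adjusted p = 0.453).

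Scavenger receptors other than Scara3 had 9 of 12 tested and 0 DEGs, with a median of 0.037 in MOG vs. SHAM. Msr1, the macrophage scavenger receptor of the same class, had at most 3 reads in any library and was not tested. Colec12, another receptor of the class, was at 1.12 ± 0.135 CPM in SHAM, 0.837 ± 0.361 in MOG, 1.61 ± 0.0840 in GB20 and 1.42 ± 0.228 in GV16 (MOG vs. SHAM -0.41 ± 0.34, adjusted p = 0.632).

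**Figure D4:**
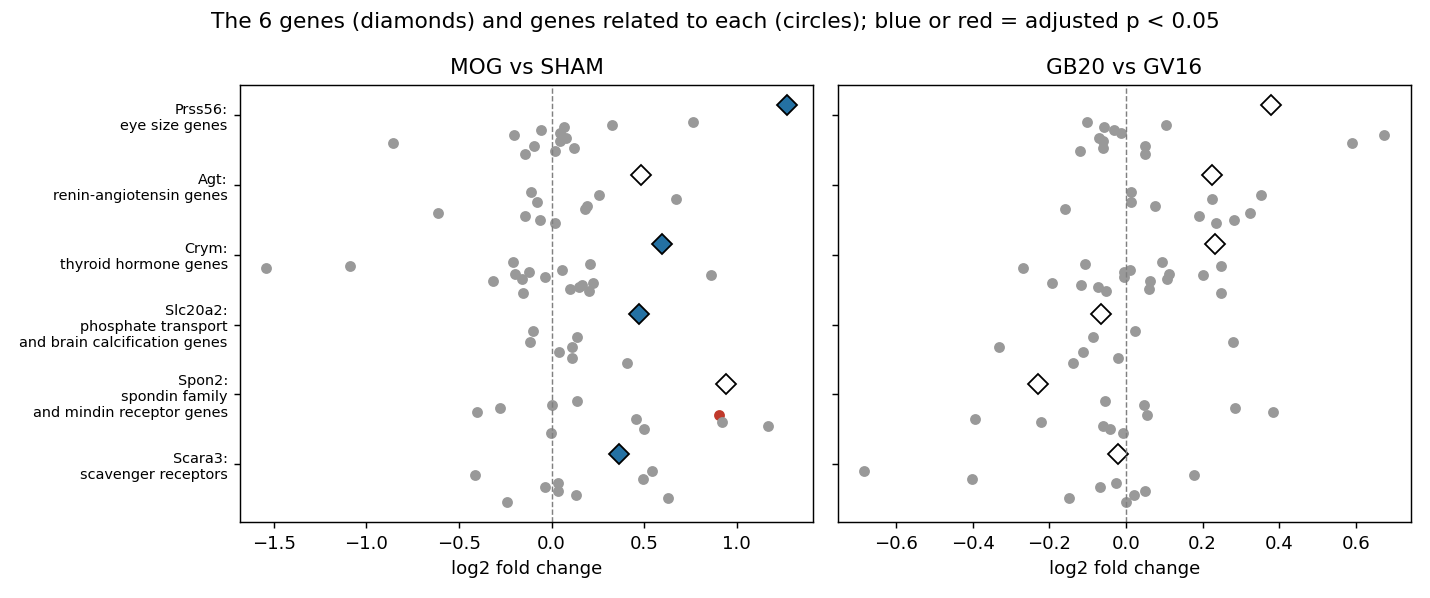
Log2 fold change (x axis) of the 6 genes (diamonds) and of the tested genes related to each (circles, 1 row per list) in MOG vs. SHAM and in GB20 vs. GV16; blue diamonds and red circles have an adjusted p under 0.05. Thbs1, at 0.91 in MOG vs. SHAM, is the 1 coloured circle, and the eye size genes have a median of 0.044 while Prss56 is at 1.27.

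Cell markers give the makeup of these libraries, and in bulk RNA fewer cells of a type and less RNA per cell cannot be told apart. Rod genes summed to between 57500 and 64020 CPM in all libraries, and all 10 ganglion cell markers were called lower in MOG than in SHAM. All 10 were also called lower in GV16 vs. SHAM and 4 in GB20 vs. SHAM. In either needled group vs. MOG, and in GB20 vs. GV16, 0 of the 10 were called. Their median log2 fold change was -0.64 in GB20 and -0.783 in GV16 vs. SHAM, and 0.132 in GB20 vs. GV16. Of the 18299 genes tested, 141 were called lower in MOG, 79 in GV16 and 33 in GB20, each vs. SHAM. The 14 Müller cell markers, the cells known to make Prss56, summed to 4513 to 4934 CPM in SHAM, 4323 to 4840 in MOG, 4553 to 4778 in GB20 and 4603 to 4820 in GV16, and none was at 0. Glul was the largest part of this sum (means 2081, 1743, 1972 and 2074 CPM in the same order), so the sum says little about the lower markers. Within the 14, Aqp4 was called higher in MOG vs. SHAM and lower in both needled groups vs. MOG, the direction of the 6 genes. Car14 was called higher in both needled groups vs. MOG, and Rlbp1 was called lower in GV16 vs. SHAM. The 5 astrocyte markers, of interest for Agt, summed to 40.1 to 50.3 CPM in SHAM, 74.5 to 80.3 in MOG, 59.4 to 86.4 in GB20 and 57.5 to 69.8 in GV16, with Gfap called higher in MOG and in GB20 vs. SHAM. Gfap carried this sum, with means of 23.1, 54.9, 51.3 and 41.3 CPM in SHAM, MOG, GB20 and GV16, and the 4 other astrocyte markers summed to 19.5 to 24.5, 21.9 to 25.2, 21.3 to 27.4 and 21.1 to 22.7 CPM. Microglial markers summed to 43.7 to 51.1 CPM in SHAM and 58.4 to 72.9 in the immunized groups (2 of 12 called higher in MOG). Pigment epithelium markers summed to 31.9 to 41.3 CPM in SHAM, 51.4 to 63.1 in MOG, 51.5 to 60.9 in GB20 and 34.5 to 75.4 in GV16, with 0 of 11 called. Their part in the values of the 6 genes was not tested.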

How the data were processed

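Mouse retinal RNA of 12 libraries (3 each of SHAM, MOG, GB20 and GV16, grouped by the sample labels) was poly-A selected, aligned with HISAT2 2.0.5 (the submitters' notes also name mm10) and counted by FeatureCounts. The authors deposited whole-number read counts per gene, not normalized, and FPKM values from the same counts and gene length. The annotation release and strand setting were not given in the sources used here. Totals were 15860278 to 19194280 counts per library.

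Counts of 18299 genes passing edgeR 4.0.16's expression filter (R 4.3.3) were TMM-scaled and fitted in 1 robust quasi-likelihood model, 1 mean per group, with Benjamini-Hochberg adjustment over all of them, 2-sided. SE is the log2 fold change over the root of F. Log2 CPM used a prior count of 2. Alternatives used DESeq2 1.42.0, limma 3.58.1 (log2(FPKM + 1) and log2(FPKM + 0.1)) and left-out libraries. The fit was tested on simulated data. Deviations from group means were correlated between same-numbered libraries. Values over 0.1 occurred in all 3 pairs of SHAM with GB20 (0.156 to 0.432) and with GV16 (0.118 to 0.189). No other contrast had this in all its pairs, and GB20 with GV16 ran from -0.117 to 0.0276. SHAM 1 was as close to GB20 3 (0.163) as to GB20 1 (0.156). Pairing SHAM with both needled groups would also pair GB20 with GV16, so the check does not settle pairing. The labels do not state it, the main fit is unpaired, and a fit with the replicate number as a block is an alternative.

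The 6 genes and all lists were chosen with earlier results of these data known. Other genes were named by fixed rules: all lower in both needled groups and the 3 nearest outside, the 10 most like Prss56 by r, DEGs of the 6 related lists and the central genes of each list, of which 1 is not reported here. GENCODE vM21 held 54495 of the 54532 identifiers.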

Additional observations from a re-analysis of the deposited data

How the results depend on the processing

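The calls of Prss56, Crym and Slc20a2 in MOG vs. SHAM, and the count of 0 in GB20 vs. GV16, stayed in all alternatives run (10 other fits and 12 fits without 1 library). Members called in GB20 vs. SHAM went from 0 to 1 with no filter on low counts, and from 0 to 1 when 1 library was left out (SHAM 3). In GV16 vs. SHAM they went from 0 to 2 with no filter, to 1 with DESeq2 on 12 libraries, and from 0 to 1 when SHAM 3 was left out. In the contrasts that chose the genes, 6 calls became 2 in GB20 vs. MOG under log2(FPKM + 0.1), and 3 and 2 in GV16 vs. MOG under log2(FPKM + 1) and log2(FPKM + 0.1). Leaving out 1 library gave 4 to 6 calls in each of these. Left-out libraries turned the sign of Slc20a2 in GV16 vs. SHAM (-0.0148 to 0.0655) and of Scara3 in GB20 vs. GV16 (-0.0581 to 0.0449), both uncalled. DESeq2 on 6 libraries gave Spon2 no adjusted p in GB20 vs. MOG. The cause of these changes was not tested.

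Over all genes, 245 DEGs in MOG vs. SHAM became 539 without the filter, 404 with the replicate block and 110 on FPKM, and 91 to 427 when 1 library was left out. GB20 vs. SHAM (63) gave 14 to 282, GV16 vs. SHAM (120) gave 23 to 395, GB20 vs. MOG (44) gave 6 to 144 and GV16 vs. MOG (30) gave 4 to 73. The 15 genes lower in both became 29 without the filter, 22 on 6 libraries, 10 with limma-voom and 3 or 2 on FPKM. The length trend offset was added after seeing the data and gave 20.

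The check of replicate numbers does not settle which contrasts are paired. Of 18 same-numbered pairs 8 were over 0.1, against 4 of 36 others. In addition, 9 of 12 libraries were nearest to one of their own number, a hint from the data. With the replicate block, 5 of the 6 genes were called in MOG vs. SHAM (Spon2 added, adjusted p = 0.0179) and 0 in GB20 vs. GV16, and the block changed no other call of the 6 genes. Low counts limit Spon2, with 81 reads over the GB20 libraries.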
